A study of Mus musculus with 4 samples.

Results

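NF-κB is a family of dimeric transcription factors, and the 10 genes described here encode its subunits and the proteins that decide when the noncanonical arm is active. The genes were listed by name: Nfkb1, Nfkb2, Rel, Rela, Relb, Map3k14, Traf2, Traf3, Birc2 and Birc3. All 10 were found, each under 1 identifier, among the 33696 features of the matrices. Their levels were read from unique molecular identifier (UMI) counts, in which each captured RNA molecule is counted once.

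The data are 4 single-cell libraries, each of live leukocytes that were sorted for CD45 from subcutaneous tumours of KPC cells, a mouse pancreatic cancer line. The line carries the P53 LSL.R172H/+ allele with Pdx-Cre, which is active in pancreatic progenitors, and was grown in syngeneic adult male C57BL/6 mice. The groups were untreated, STING agonist (ADU-S100, injected into the tumour), LTbR agonist (an antibody that activates the lymphotoxin-β receptor, given intraperitoneally) and both agonists, here called the combination. Tumours of a group were combined for the sort, which left 1 library per group, no replicates and no possible test between groups. A second experiment of the study is not analysed here. Sets of 4 values follow the order untreated, STING agonist, LTbR agonist and combination.

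In the canonical arm, signals from cytokine, Toll-like and antigen receptors activate the IKK complex, which removes IκB inhibitors and frees dimers of RelA or c-Rel with p50 within minutes. In the noncanonical arm, the lymphotoxin-β receptor, CD40, BAFF receptor and RANK act more slowly. At rest, TRAF3, TRAF2 and the ligases cIAP1 and cIAP2 keep the kinase NIK at a low level by marking it for degradation. Engagement of the receptor removes TRAF3, NIK accumulates, p100 is processed to p52, and dimers of RelB with p52 enter the nucleus. Much of this control acts on protein, which RNA counts do not show.

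Promoter windows of the members, from 250 bases before to 50 bases after the annotated start, were read from the RefSeq table for GRCm38.p6. The table matched 8 of the 10 members with 11 windows, and Nfkb1 and Relb are named only. Windows were searched on both strands for the κB consensus, the degenerate 10-base site bound by NF-κB dimers, with overlapping matches merged. Of the 8 matched members, 3 had a match in at least 1 window, against 9.55% of 27025 genes in the table and 8.46% of 32851 windows. Matches are descriptions of letters, not of binding. One window of each of those 3 members is shown, to give the letters of the matches. Nfkb2 had matches in 3 windows, and the one with 2 runs just before its start is printed. Capitals mark the κB matches. For Nfkb2 (chr19:46304487-46304786, plus strand) they begin 39 and 11 bases before the start. For Rel (chr11:23770920-23771219, minus strand) the match begins 92 bases before the start, and for Traf3 (chr12:111166120-111166419, plus strand) 10 bases before it.

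Nfkb2: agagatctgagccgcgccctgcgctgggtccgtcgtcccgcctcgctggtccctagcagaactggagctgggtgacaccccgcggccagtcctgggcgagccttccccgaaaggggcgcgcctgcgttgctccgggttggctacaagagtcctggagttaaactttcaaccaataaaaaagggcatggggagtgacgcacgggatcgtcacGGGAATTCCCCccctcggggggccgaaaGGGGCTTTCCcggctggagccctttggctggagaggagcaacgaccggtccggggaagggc

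Rel: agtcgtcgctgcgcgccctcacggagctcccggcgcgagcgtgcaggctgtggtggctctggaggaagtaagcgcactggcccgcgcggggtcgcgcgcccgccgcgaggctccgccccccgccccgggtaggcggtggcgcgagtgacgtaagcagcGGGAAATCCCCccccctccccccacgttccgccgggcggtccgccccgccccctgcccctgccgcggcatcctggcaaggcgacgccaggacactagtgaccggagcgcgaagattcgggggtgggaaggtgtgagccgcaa

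Traf3: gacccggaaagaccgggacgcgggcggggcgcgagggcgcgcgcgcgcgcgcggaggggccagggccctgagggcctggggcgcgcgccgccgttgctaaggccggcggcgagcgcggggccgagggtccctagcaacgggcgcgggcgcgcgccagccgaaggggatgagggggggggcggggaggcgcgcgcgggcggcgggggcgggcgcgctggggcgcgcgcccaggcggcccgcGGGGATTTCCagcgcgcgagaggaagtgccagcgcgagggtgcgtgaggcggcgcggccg

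The deposited matrices held 8730 to 16322 cells and 52109958 to 85855398 UMIs per library, with the lowest median of 2157.5 UMIs per cell in the combination. After filtering, 7370, 13224, 13024 and 14418 leukocytes were kept. Pairs of libraries shared at most 0.539% of the smaller library's barcodes, and no shared barcode had the same profile in both. Names of cell types mean cells that resemble that type by markers, and 10.0 to 14.9% of kept cells had no name. Neutrophils numbered 492, 5292, 970 and 1284, and B class cells (B and plasma cells) 110, 72, 536 and 1036, so all comparisons below were made within cell classes. The pan-leukocyte gene Ptprc, which encodes the sorted CD45 antigen, was found in every named leukocyte type. A cluster of 154 to 249 carcinoma cells per library, with Krt18 at 184 to 290 counts per 1000000 UMIs (CPM), had also passed the sort and was kept out of the leukocyte classes. No member was used for clustering or as a marker.

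Levels are given in CPM, after adding up all cells of 1 type in 1 library. They compare 1 gene between cells, not one gene with another, since the counts are not per length. All intervals are exact 95% intervals of counting error alone. They say nothing of how mice, tumours or libraries vary. Over all kept leukocytes the members were measured with 3566 (Traf2) to 146959 (Nfkb1) UMIs, so precision differed widely among them.

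Mature dendritic cells, which have taken up antigen and present it to T cells, had the highest level of 6 members among the named types, with a range over libraries that did not overlap that of the next named type. Nfkb1, the gene of p105 and p50, was at 1889, 2377, 2213 and 1964 CPM there, against 1005 to 1100 CPM in CD4 T cells, which ranked next. Rel, the gene of c-Rel, was at 1857, 1954, 2095 and 1877 CPM, against 708 to 856 CPM in cDC2 cells. Both genes were therefore high in mature dendritic cells of the untreated library too. An unnamed cluster of 3330 cells, with neutrophil and macrophage markers within the margin of each other, held Nfkb1 at 1174, 2466, 1622 and 1873 CPM, which overlapped mature dendritic cells. All orders of levels given here are among named types.

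The pair that forms the noncanonical dimer had the same leading cell type. Nfkb2, the gene of p100 and p52, was at 251, 250, 253 and 201 CPM in mature dendritic cells, and regulatory T cells came next at 84.6 to 144 CPM. Relb was at 777, 759, 824 and 716 CPM, against 147 to 212 CPM in regulatory T cells. Apart from mature dendritic cells, Relb fell along a chain of overlapping types from regulatory T cells to C1q macrophages (65.9 to 85.0 CPM), with pDC and plasma cells below. Plasma cells had the lowest mean of Nfkb1 (69.7 to 124 CPM), Rel (41.1 to 58.4 CPM), Rela and Relb among 16 named leukocyte types.

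Map3k14, the gene of NIK, was the member with the widest contrast between classes. Its level in the dendritic class was 2.78 log2 units above the mean of the other 5 classes. Mature dendritic cells held 989, 895, 990 and 706 CPM, cDC2 cells 317 to 399 CPM and cDC1 cells 144 to 272 CPM, so the 3 dendritic types other than pDC led the order. Plasma cells ranked last, at 8.19 to 16.3 CPM. Birc2, the gene of cIAP1, was at 516, 423, 512 and 394 CPM in mature dendritic cells and at 142 to 327 CPM in regulatory T cells. It was lowest in monocytes, at 26.2 to 33.2 CPM.

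The remaining members had other leading types. Rela, the gene of the transactivating subunit RelA, formed a chain of neighbours: neutrophils (71.2 to 85.1 CPM) and mature dendritic cells (63.3 to 83.8 CPM) overlapped, and each type down to pDC overlapped its neighbour in the order. Traf2 was highest in NK cells (36.5 to 50.1 CPM), regulatory T cells (35.5 to 51.3 CPM) and mature dendritic cells (30.9 to 45.9 CPM), which overlapped. Neutrophils had the lowest mean of Traf2, at 3.23 to 7.54 CPM.

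Traf3, the adapter that brings NIK to its ligases, was highest among named types in regulatory T cells (489 to 798 CPM) and mature dendritic cells (466 to 675 CPM). Their ranges overlapped each other but not that of MHC class II macrophages, which ranked next at 226 to 332 CPM. Traf3 reached higher in the unnamed cluster of 3330 cells, at 597, 835, 1040 and 793 CPM, and in one of 1371 cells, at 664, 940, 1060 and 943 CPM, both overlapping regulatory T cells. Birc3, the gene of cIAP2 and itself a well-known NF-κB target, was highest in neutrophils at 1088, 886, 923 and 1118 CPM. B cells, which had enough cells in the LTbR agonist and combination libraries only, followed at 642 to 743 CPM, and neither range overlapped the next. The class with the highest level was the same under all 8 other ways of processing for Rel, Rela, Map3k14, Traf2 and Birc3, and under 7 for Nfkb1, Nfkb2 and Relb. It was the T class for Traf3 under 4 and for Birc2 under 2, so the leading class of those genes was not settled.

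By the correlation of log2 levels across 49 combinations of 14 cell types and libraries, Nfkb2 was the gene most like both Nfkb1 and Relb. Among 8615 genes, those most like Nfkb1 were Nfkb2 (r = 0.92), Nr4a3 (0.90) and Gpr132 (0.89). Those most like Nfkb2 were Nfkb1 (0.92), Apaf1 (0.91) and Relb (0.91), and those most like Relb were Nfkb2 (0.91), Pcgf5 (0.88) and Gpbp1 (0.88). Map3k14 was nearest to Mbtd1 (0.93), Cmtr1 (0.90) and Rbbp8 (0.89), and Rel to Cmtr1 (0.89), Pdcd1lg2 (0.88) and Jak2 (0.88).

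The other members, Map3k14 and Rel included, had no member among the 3 genes most like them. Rela was nearest to Gnai3 (r = 0.85), Btg1 (0.85) and Apbb1ip (0.84), and Traf2 to Krit1 (0.92), Mkln1 (0.91) and Marf1 (0.91). Traf3 was nearest to Zfp36l1 (0.82), Tank (0.80), which encodes a TRAF-binding protein, and Tmem63b (0.78). For Birc2 they were Ccser2 (0.92), Zfand6 (0.88) and Il2ra (0.88), and for Birc3 Btbd9 (0.85), Fbxo11 (0.84) and Nfkbid (0.83), the gene of an IκB protein. Birc3 and Traf2 had r = 0.03 with each other. Points of 1 library share its depth and points of 1 type its composition, so these values describe likeness only.

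The comparisons with untreated asked how the components stood in tumours given either agonist or both. A gene was called higher or lower in a class when its CPM differed at least 1.5-fold and the interval of the ratio excluded 1, among genes with at least 200 UMIs in the class over both libraries. Over the macrophage and monocyte, neutrophil, T, NK, dendritic and B classes, few member levels passed. With the STING agonist, 0 of 47 gene and class pairs were higher and 1 was lower, where 4.24% and 8.62% of all tested pairs were higher and lower. With the LTbR agonist 2 of 49 were higher and 0 lower (all genes, 4.14% and 2.64%), and with the combination 5 of 48 were higher and 0 lower (4.26% and 2.75%). These 3 comparisons share the untreated library.

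Between treated libraries, the combination had 5 of 49 pairs higher and 0 lower than the STING agonist alone (all genes, 8.17% and 3.37%). Against the LTbR agonist alone, 0 of 52 were higher and 0 lower (1.49% and 1.25%). The shares of members called were thus near or below those of all genes, except for the higher calls of the combination against untreated. Of its 5, 2 were in the B class, which held 110 untreated cells. All 13 calls of members in these 5 comparisons were lost when cells were thinned to 2000 UMIs, which lowers the UMIs behind each value.

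In macrophages and monocytes, the class with most cells, the subunit genes were higher in each treated library than in the untreated one, mostly by less than 1.5-fold. The median gene of this class stood at -0.20 log2 units with the STING agonist, -0.03 with the LTbR agonist and -0.09 with the combination, so member ratios are to be read against those shifts. The members' medians were 0.28, 0.32 and 0.35. By the 1.5-fold rule 0 members were higher or lower with the STING agonist (all genes, 4.80% higher and 10.1% lower). With the LTbR agonist the count was also 0 each way (3.73% and 2.23%), and with the combination Rel alone was higher and 0 were lower (3.43% and 2.72%). This call of Rel, at 0.60, was kept in 8 of 13 alternatives and lost when thinned, with equal weight per cell, with clusters at fixed weights (0.54), at doubled resolution and at 2-fold. Among the 13, lower minimums of UMIs and a rule without a minimum fold could not lose a call. The 2-fold rule could not keep this one.

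Counted by the interval alone, without a minimum fold, a rule added after the values were seen, 7 members were higher and 1 lower with the STING agonist (all genes, 16.1% and 59.5%). With the LTbR agonist 8 were higher and 0 lower (22.8% and 28.0%), and with the combination 9 and 0 (18.0% and 37.7%). Such intervals narrow as UMIs increase, so this count reaches small differences in well-measured genes. Traf2 was the member for which no interval excluded 1 in any of the 3 comparisons.

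**Figure D1:**
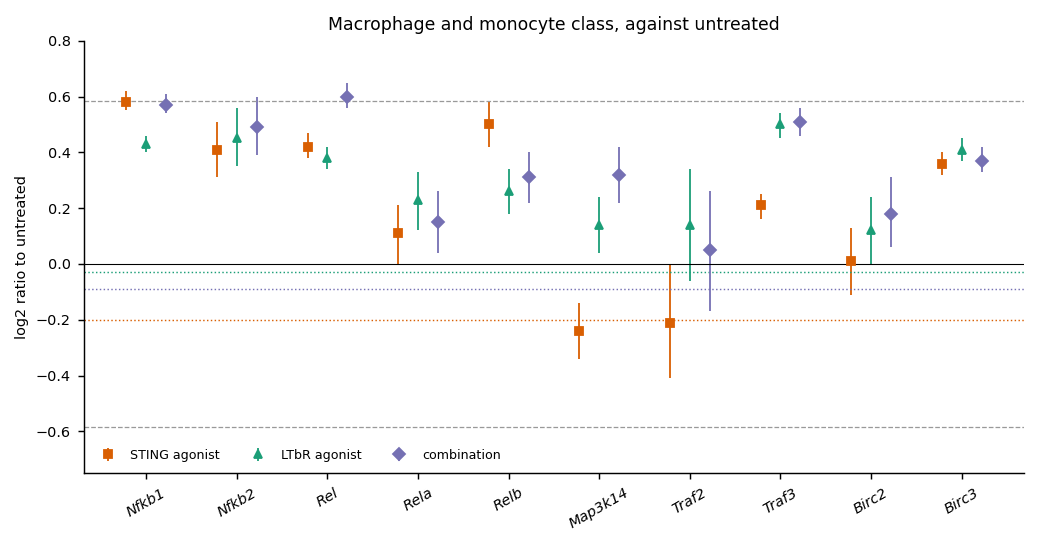
Log2 ratio of each member to untreated in macrophages and monocytes, with exact 95% counting intervals, for the 3 treated libraries. The 5 subunit genes lie above 0 in every library, Map3k14 lies below 0 with the STING agonist only, and Traf2 and Birc2 lie between -0.21 and 0.18.

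Among the canonical subunits, Nfkb1 was at 405, 607, 546 and 603 CPM in macrophages and monocytes. Its log2 ratio to untreated was 0.58 (0.55 to 0.62), 0.43 (0.40 to 0.46) and 0.57 (0.54 to 0.61) with STING agonist, LTbR agonist and combination. The untreated library was thus the lowest of the 4, and the STING agonist and combination libraries were level. Rel was at 247, 332, 322 and 376 CPM, with ratios of 0.42 (0.38 to 0.47), 0.38 (0.34 to 0.42) and 0.60 (0.56 to 0.65). The combination was the highest library for Rel, 0.18 (0.14 to 0.22) above the STING agonist. In that comparison the median gene of the class stood at 0.10, which applies to the members below as well. Rela was at 45.1, 48.7, 52.9 and 50.1 CPM, with ratios of at most 0.23, so this subunit differed least.

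Of the noncanonical pair, Nfkb2 was at 45.1, 59.7, 61.8 and 63.5 CPM, with ratios of 0.41 (0.31 to 0.51), 0.45 (0.35 to 0.56) and 0.49 (0.39 to 0.60). The 3 treated libraries lay close together, above the untreated one. Relb was at 69.8, 99.0, 83.6 and 86.4 CPM, with ratios of 0.50 (0.42 to 0.58), 0.26 (0.18 to 0.34) and 0.31 (0.22 to 0.40). Relb was highest with the STING agonist, and the combination was below it, at -0.20 (-0.27 to -0.12).

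Map3k14 stood below untreated with the STING agonist and above it with the LTbR agonist, with intervals that excluded 1. It was at 52.3, 44.2, 57.7 and 65.3 CPM, with ratios of -0.24 (-0.34 to -0.14), 0.14 (0.04 to 0.24) and 0.32 (0.22 to 0.42). The STING agonist library was the lowest and the combination the highest, and the combination stood 0.56 (0.47 to 0.66) above the STING agonist. The value of -0.24 is close to the median gene in that library, and with clusters held at fixed weights it was -0.01.

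Of the complex that degrades NIK, Traf3 was at 208, 240, 294 and 296 CPM, with ratios of 0.21 (0.16 to 0.25), 0.50 (0.45 to 0.54) and 0.51 (0.46 to 0.56). The libraries with LTbR agonist were level with each other, and the combination was 0.30 (0.26 to 0.35) above the STING agonist, where the median gene stood at 0.10. Birc3 was at 243, 312, 323 and 315 CPM, with ratios between 0.36 and 0.41, alike in the treated libraries. Traf2 (13.0, 11.2, 14.3 and 13.4 CPM) and Birc2 (35.2, 35.5, 38.2 and 40.0 CPM) differed by at most 0.21 in size. Within the complex, Birc3 thus lay further from untreated than Traf2 and Birc2 in each treated library, and Traf3 did so in the libraries given LTbR agonist. With the STING agonist Traf3 was at 0.21, Traf2 at -0.21 and Birc2 at 0.01, where the median gene stood at -0.20. Read against that shift, Traf3 lay above both there too.

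Within the class, MHC class II macrophages, which present antigen, had calls in each treated library. Of 9 members tested there, 3 were higher with the STING agonist, 1 with the LTbR agonist and 2 with the combination, where 4.58%, 3.01% and 3.25% of all genes tested in this type were. Rel was at 286, 466, 426 and 441 CPM, with ratios of 0.70 (0.61 to 0.80), 0.57 (0.48 to 0.66) and 0.62 (0.53 to 0.72). Relb was at 73.0, 119, 96.1 and 98.1 CPM and was called with the STING agonist at 0.70 (0.51 to 0.90). Nfkb1 was at 428, 604, 678 and 677 CPM, called at 0.66 with the LTbR agonist and with the combination. In the larger cluster of this type Nfkb1 was at 426, 605, 619 and 639 CPM. In the smaller one it was at 457, 1024 and 969 CPM in the untreated, LTbR agonist and combination libraries. These held 31, 159 and 191 of its cells, so the mix differed. Birc2 was at 32.7, 50.8, 40.6 and 46.6 CPM, called at 0.63 (0.34 to 0.93) with the STING agonist. The untreated library was the lowest for all 4 genes. Of these 6 calls, 5 fell short of 1.5-fold under an alternative. Thinning gave 0.54 and 0.53 for Rel with the STING agonist and the combination, 0.50 for Birc2 and 0.49 for Nfkb1 with the LTbR agonist, and equal weight per cell gave 0.54 for Relb. S100a8, a neutrophil gene, was at 6.05, 46.9, 11.6 and 28.8 CPM in these cells, and its part in the result was not tested.

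In C1q macrophages and monocytes, Rel, Nfkb1 and Traf3 passed. C1q macrophages had Rel at 238, 307, 278 and 386 CPM, called with the combination at 0.70 (0.63 to 0.76), where 3.25% of all genes were. Monocytes had Nfkb1 at 490, 766, 598 and 661 CPM, called with the STING agonist at 0.64 (0.58 to 0.71), and Traf3 at 204, 235, 335 and 292 CPM, called with the LTbR agonist at 0.71 (0.61 to 0.82). Each was the 1 member of 10 called there, against 4.24% and 2.48% of all genes, and Nfkb1 was at 0.57 when thinned.

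**Figure D2:**
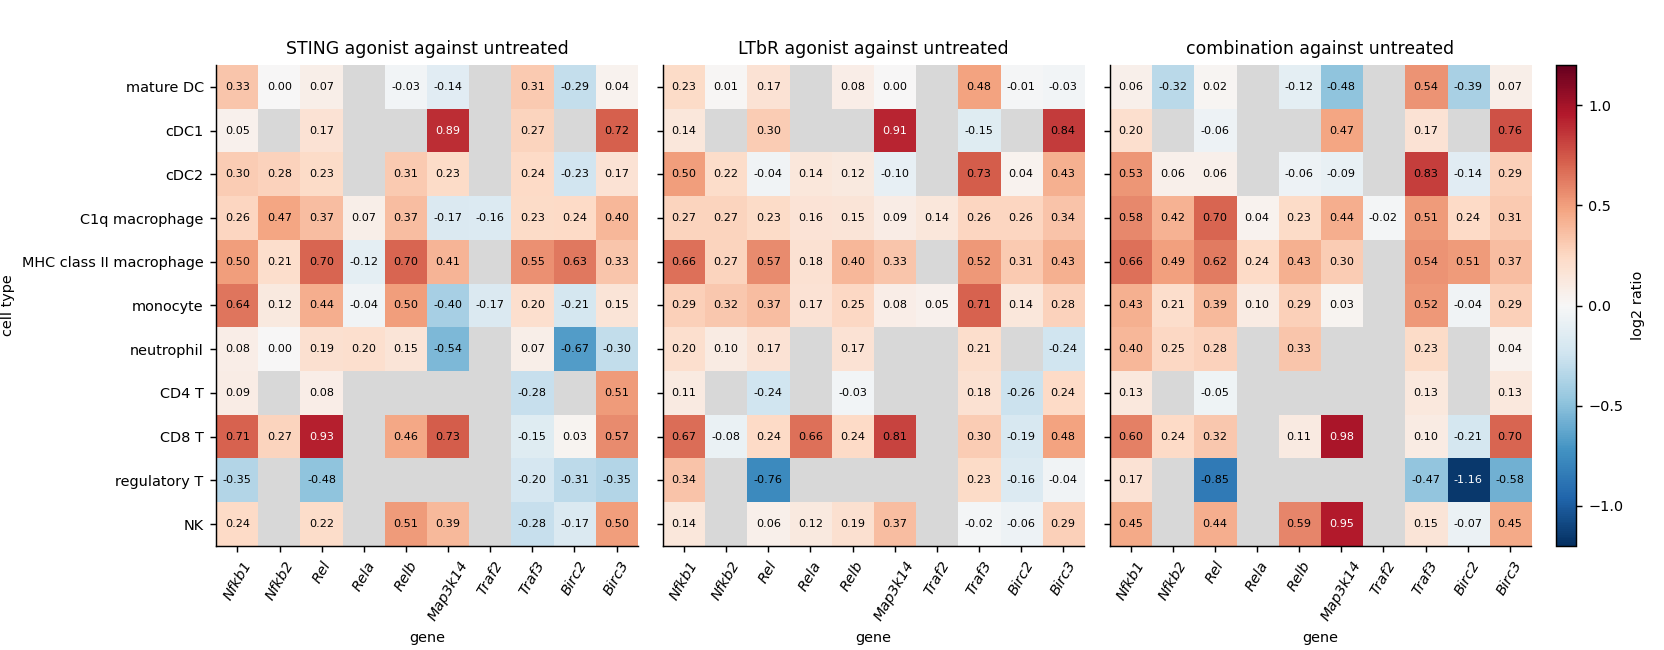
Log2 ratio of each member to untreated in 11 leukocyte types, for the 3 treated libraries; grey marks genes under 200 UMIs. Nfkb1 is above 0 in CD8 T cells and in the 3 macrophage and monocyte types shown in every treated library, whereas Rel is below 0 in regulatory T cells.

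Dendritic cells had high levels in all libraries but no member past 1.5-fold as a class. Of the members tested, 0 were higher with either agonist or both, against 4.06%, 3.22% and 3.91% of all genes. Nfkb1 was at 861, 1187, 1192 and 1085 CPM and Traf3 at 183, 243, 272 and 267 CPM, with Traf3 ratios of 0.41 (0.28 to 0.54), 0.57 (0.45 to 0.69) and 0.55 (0.42 to 0.68). Both were lowest in the untreated library. Map3k14 was at 400, 474, 446 and 352 CPM and Relb at 238, 297, 269 and 218 CPM, with the combination lowest. Mature cells, which had the highest levels of these genes, were 182 of 665, 164 of 495, 184 of 752 and 183 of 794 dendritic cells, so the mix differed between libraries. With clusters at fixed weights, the ratios to untreated were 0.09, 0.04 and -0.26 for Map3k14, 0.11, 0.10 and -0.07 for Relb, and 0.27, 0.52 and 0.61 for Traf3, with pDC, at 29 cells, left out of the combination.

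Among the dendritic types, members were called in cDC1 and cDC2 cells. In cDC1 cells, which cross-present antigen to CD8 T cells, 2 of 5 members tested were higher with the STING agonist, 2 with the LTbR agonist and 1 with the combination, against 4.46%, 4.27% and 3.44% of all genes. Map3k14 was at 144, 268, 272 and 200 CPM there, with ratios of 0.89 (0.62 to 1.17), 0.91 (0.66 to 1.17) and 0.47 (0.19 to 0.76). Birc3 was at 126, 209, 227 and 215 CPM, with ratios of 0.72 (0.42 to 1.03), 0.84 (0.57 to 1.12) and 0.76 (0.47 to 1.05). For both, untreated cells were the lowest. Thinning all cells to the same depth left the Birc3 ratio of the combination at 0.23 and the Map3k14 ratio of the STING agonist at 0.50.

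Below the minimum of 200 UMIs, Relb in cDC1 cells was at 49.6, 119, 68.5 and 82.5 CPM and Nfkb2 at 33.7, 74.8, 44.0 and 58.8 CPM. Their ratios with the STING agonist were 1.27 (0.82 to 1.71) and 1.15 (0.60 to 1.71). Both were highest with the STING agonist, in 62 cDC1 cells, where S100a8 was at 196 CPM against 4.52 to 11.2 CPM in the other libraries, and its part was not tested. In cDC2 cells Traf3 was at 119, 140, 197 and 211 CPM, called with the LTbR agonist at 0.73 (0.52 to 0.96) and the combination at 0.83 (0.60 to 1.07), where 3.64% and 4.05% of all genes were. With equal weight per cell the value in the combination was 0.55. In mature dendritic cells the ratios of tested members lay between -0.48 and 0.54. Their Map3k14 was lowest in the combination, at -0.48 (-0.65 to -0.33), and their Traf3 was highest there, at 0.54 (0.35 to 0.72).

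Among T cells as a class, Map3k14 was the 1 of 10 members called with the LTbR agonist, against 4.17% of all genes. It was at 73.6, 109, 111 and 94.0 CPM, with ratios of 0.56 (0.34 to 0.79), 0.60 (0.42 to 0.78) and 0.35 (0.14 to 0.57). All treated libraries lay above the untreated one, but with clusters at fixed weights the LTbR agonist ratio was 0.43, and the call was kept in 6 of 13 alternatives. Those 6 include the looser rules, which could not lose it. Traf3 was at 292, 237, 291 and 257 CPM and Birc2 at 171, 159, 141 and 132 CPM. The untreated library was the highest for Birc2 and level with the LTbR agonist for Traf3.

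In CD8 T cells, the cytotoxic subset, 3 of 8 members tested were higher with the STING agonist, 3 of 9 with the LTbR agonist and 3 of 8 with the combination, against 4.91%, 5.27% and 4.57% of all genes. Nfkb1 was at 298, 487, 475 and 451 CPM, with ratios of 0.71 (0.55 to 0.87), 0.67 (0.55 to 0.80) and 0.60 (0.45 to 0.74). Map3k14 was at 46.8, 77.3, 82.3 and 92.3 CPM, with ratios of 0.73 (0.31 to 1.13), 0.81 (0.50 to 1.13) and 0.98 (0.63 to 1.33). These members were called in all 3 treated libraries, but thinning took Nfkb1 with the combination to 0.41 and Map3k14 with the STING agonist to 0.55. Rel was at 149, 284, 176 and 185 CPM and was called with the STING agonist alone, at 0.93 (0.72 to 1.15). Rela, at 35.9, 56.7, 57.0 and 51.9 CPM, was called with the LTbR agonist at 0.66, and Birc3, at 162, 241, 227 and 264 CPM, with the combination at 0.70. Rela fell to 0.52 when thinned and Birc3 to 0.55 with equal weight per cell, both short of 1.5-fold. Every one of these 5 genes was lowest in the untreated library. In the STING agonist library these cells also held S100a8 at 154 CPM, against 1.41 to 9.68 CPM in the others, and Jchain, a plasma cell gene, was highest in the combination at 59.8 CPM. Their part was not tested.

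Regulatory T cells, which restrain other T cells, went the other way for Rel, a factor needed for their development. Rel was at 665, 476, 393 and 364 CPM, with ratios of -0.48 (-0.80 to -0.17), -0.76 (-1.03 to -0.49) and -0.85 (-1.37 to -0.40), and was called lower with the LTbR agonist and the combination, where 1.98% and 8.03% of all genes were. The untreated library was the highest. Birc2 was at 327, 263, 292 and 142 CPM, called lower with the combination at -1.16 (-2.04 to -0.47). There were 165, 50, 120 and 53 such cells, and with equal weight per cell the Rel ratios were -0.45 and -0.47.

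In NK cells 2 of 7 members tested were higher with the combination, against 3.54% of all genes, and 0 with either agonist alone. Map3k14 was at 68.5, 89.7, 88.8 and 133 CPM, with a ratio of 0.95 (0.57 to 1.34) in the combination, which was 0.58 (0.26 to 0.89) above the LTbR agonist. Relb was at 87.6, 125, 100 and 132 CPM, with a ratio of 0.59 (0.23 to 0.95). The combination was the highest library for both genes. Thinning to equal depth, which left out 68.6% of NK cells in the combination, gave a Map3k14 ratio of 0.22, and both calls were also lost in cells named without clusters. The Relb call was lost when thinned and without immunoglobulin, mitochondrial and ribosomal genes in the total too, with values down to 0.42.

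Neutrophils, the most numerous named class of the STING agonist library, had high Birc3 in every library. Birc3 was lowest with the STING agonist, at -0.30 (-0.39 to -0.20), against -0.25 for the median gene. In the 3 neutrophil clusters it was at 822, 1291 and 593 CPM untreated and at 830, 1180 and 508 CPM with the STING agonist. Those clusters held 168, 278 and 46 untreated cells and 2995, 1401 and 896 with the STING agonist, so the mix differed. Birc2 was at 58.2, 36.8, 22.9 and 33.9 CPM and was called lower with the STING agonist at -0.67 (-1.07 to -0.23), the 1 of 9 members tested, where 21.3% of all genes were and the median gene stood at -0.25. Birc2 was thus highest in untreated tumours. The ratio was short of 1.5-fold with median scaling, with equal weight per cell and at doubled resolution, with values up to -0.38. Map3k14 was at 48.5, 33.8, 37.3 and 51.2 CPM, called higher in the combination than with the STING agonist alone at 0.61 (0.23 to 0.95), where 11.6% of all genes were. That call was lost when thinned, with median scaling and in cells named without clusters, with values down to 0.50. Nfkb1 was at 767, 813, 880 and 1014 CPM, highest in the combination at 0.40 (0.27 to 0.53). In the same 3 clusters Nfkb1 was at 1031, 702 and 119 CPM untreated and at 1042, 1031 and 216 CPM in the combination. The combination held 666, 574 and 44 cells of them, so the largest cluster was level and the mix differed.

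In the B class, Rel and Nfkb1 were called against untreated. Rel was at 54.7, 51.2, 108 and 121 CPM, called with the LTbR agonist at 0.97 (0.56 to 1.42) and with the combination at 1.14 (0.74 to 1.59). Nfkb1 was at 109, 71.3, 160 and 178 CPM, called with the combination at 0.70 (0.41 to 1.01). These were 1 of 5 members tested with the LTbR agonist and 2 of 6 with the combination, against 9.69% and 10.8% of all genes. B cells, a separate type here, numbered 6, 8, 139 and 214, and plasma cells 104, 64, 397 and 822. Rel was at 573 to 712 CPM in B cells and at 41.1 to 58.4 CPM in plasma cells. B cells were too few in the untreated and STING agonist libraries to hold the mix of both types fixed, so its part in these ratios was not tested. In plasma clusters alone, held at fixed weights, the Rel ratios were -0.03 with the LTbR agonist and 0.37 with the combination and the Nfkb1 ratio 0.52, so none of these calls was kept there. Against the STING agonist, 4 of 5 members tested were called higher in the combination, where 31.8% of all genes were and the median gene stood at 0.36. They were Nfkb1 (1.31), Rel (1.23), Traf3 (0.67) and Birc3 (0.66). Of all 7 calls in the B class, 7 were lost when cells were thinned to 2000 UMIs. Nfkb1 turned to -0.40 in cells named without clusters and Traf3 to -0.25 with equal weight per cell.

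In the carcinoma cluster that had passed the sort, UMIs of the noncanonical pair were found at levels near or below those over all leukocytes (53.7 to 68.0 CPM for Nfkb2 and 98.1 to 124 CPM for Relb). Nfkb2 was at 27.6, 44.1, 48.2 and 65.9 CPM, with ratios of 0.67 (0.07 to 1.30), 0.80 (0.24 to 1.40) and 1.25 (0.71 to 1.83), from 38 to 105 UMIs per library, below the minimum of 200 UMIs. Relb was at 65.3, 97.0, 86.4 and 105 CPM. The untreated library was the lowest and the combination the highest for both genes. Nfkb1 was at 611, 982, 493 and 408 CPM, so it was highest with the STING agonist and lowest in the combination. In the untreated library 17.1% of these Nfkb1 UMIs came from 1 cell, and Ptprc was at 37.6 to 60.9 CPM in the cluster. The part of RNA from leukocytes in these levels was not tested.

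Upstream of the members stand the targets of the agonists, Ltbr and Sting1, which were picked after their values were seen. Ltbr was at 50.3, 44.7, 55.9 and 50.5 CPM in monocytes and at 44.4, 41.8, 48.9 and 40.4 CPM in C1q macrophages. It was at 10.3, 11.6, 10.5 and 20.6 CPM in mature dendritic cells, the type with most Map3k14, Nfkb2 and Relb. In the T, NK, B and plasma types it reached at most 8.90 CPM. Carcinoma cells held 31.9, 31.6, 43.2 and 49.6 CPM. The leukocyte types with most Ltbr were thus not those with most Map3k14, Nfkb2 and Relb. Sting1, the gene of the STING protein, was at 76.0 to 124 CPM in monocytes, C1q macrophages and MHC class II macrophages and at 10.8, 3.77, 2.87 and 5.32 CPM in neutrophils.

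The other pathway genes were counted by role over the 6 classes. Of the inhibitors of NF-κB, 19 of 67 gene and class pairs were higher and 2 lower with the STING agonist, 7 of 70 higher and 2 lower with the LTbR agonist, and 12 of 68 higher and 1 lower with the combination. Of the canonical targets, 32 of 68, 24 of 75 and 28 of 73 pairs were higher, and 2, 3 and 3 lower. In the T, NK and B classes, which held 12, 12 and 14 of these higher calls, Il1b, Cxcl2 and Ptgs2 made up 7, 8 and 7. These are genes abundant in myeloid cells, singled out after their values were seen. S100a8 was at 3.53, 49.9, 3.78 and 17.3 CPM in NK cells and at 20.6, 122, 9.30 and 53.0 CPM in plasma cells, and its part was not tested. Of the noncanonical targets, 5 of 18, 3 of 19 and 4 of 18 were higher, and 0, 1 and 1 lower. These shares exceeded the 4.24%, 4.14% and 4.26% of all pairs that were higher, but the lists were chosen with earlier results of these data known.

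Of the IKK complex and upstream kinases, 1 of 57, 0 of 64 and 1 of 57 pairs were higher, and 2, 1 and 1 lower. Over all genes 4.24%, 4.14% and 4.26% of pairs were higher and 8.62%, 2.64% and 2.75% lower. Adapters and ubiquitin ligases had 4 of 63, 3 of 64 and 3 of 58 higher (6.35%, 4.69% and 5.17%), and 6, 2 and 2 lower (9.52%, 3.12% and 3.45%). Receptors of the noncanonical arm had 3 of 24, 2 of 25 and 2 of 25 higher (12.5%, 8.0% and 8.0%), and 1, 3 and 4 lower (4.17%, 12.0% and 16.0%). Both sets of shares were above those of all genes except for the lower share with the STING agonist. The lower calls with the LTbR agonist and the combination were Tnfrsf9, Tnfrsf4 and Tnfrsf18 in T cells, Tnfrsf4 in dendritic cells and Tnfrsf11a in macrophages and monocytes, genes named after their values were seen.

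**Figure D3:**
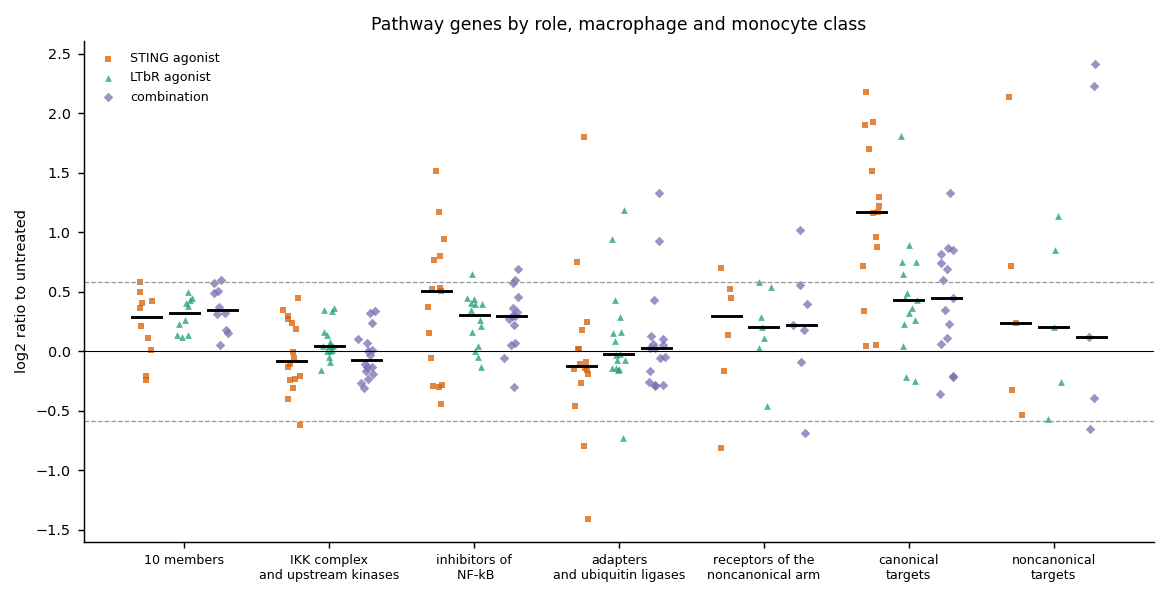
Log2 ratio to untreated of each tested pathway gene in macrophages and monocytes, by role, for the 3 treated libraries, with the median of each list as a solid line and 1.5-fold as dashed lines. Canonical targets have medians of 1.17, 0.43 and 0.45 with STING agonist, LTbR agonist and combination, above those of the members at 0.28, 0.32 and 0.35.

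In macrophages and monocytes, 12, 5 and 7 of 15 canonical targets were higher with STING agonist, LTbR agonist and combination, and 5 of 15, 1 of 14 and 2 of 14 inhibitors, against 4.80%, 3.73% and 3.43% of all genes. Nfkbia, which encodes IκBα and terminates the response, was at 610, 1749, 956 and 985 CPM, with ratios of 1.52, 0.65 and 0.69. Its level was highest with the STING agonist. Tnfaip3, the gene of the deubiquitinase A20, had ratios of 1.17 with the STING agonist and 0.60 with the combination. Il6 was at 24.1, 109, 84.2 and 60.4 CPM (2.18, 1.81 and 1.33) and Traf1, an adapter that binds TRAF2, at 43.2, 151, 98.5 and 108 CPM (1.80, 1.19 and 1.33). Both were lowest in the untreated library.

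Of the noncanonical targets in this class, 2 of 5 were higher in each treated library, against 4.80%, 3.73% and 3.43% of all genes. They were Ccl22 and Ccr7, a chemokine and a chemokine receptor, which are also markers of mature dendritic cells. Ccr7 was at 2.48, 11.0, 5.51 and 11.7 CPM and Ccl22 at 2.83, 4.66, 5.11 and 15.2 CPM, so both were low and highest in the combination. Thinning turned Ccl22 to -0.28 with the STING agonist and -0.06 with the LTbR agonist, and over all deposited cells Ccr7 was at -0.07 with the LTbR agonist. Tnfrsf11a, the gene of RANK, was lower with the STING agonist at -0.81 and with the combination at -0.69, and Tnfsf13b, the gene of BAFF, was lower with the combination at -0.65.

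In dendritic cells Nfkbia was at 415, 869, 697 and 720 CPM (1.07, 0.75 and 0.79) and Tnfaip3 at 188, 293, 308 and 307 CPM (0.64, 0.71 and 0.71). Both were lowest in the untreated library. In NK cells Nfkbia was at 290, 453, 292 and 505 CPM, with ratios of 0.64, 0.01 and 0.80. In neutrophils it was at 5108, 6767, 4834 and 5178 CPM, with 0.41, -0.08 and 0.02. Nfkbia was also called with the STING agonist in the T class at 0.61 and in the B class at 0.95. It was thus called in 5 of the 6 classes, the exception being neutrophils, where its level was highest in every library.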

How the data were processed

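The authors deposited UMI counts per gene and cell with no normalization, and the file headers name Cell Ranger 8.0.1, whereas the submitters' processing notes name 7.1.0 and mm10. Coordinates of promoters are those of the RefSeq table, not of the files. Cells with 300 to 5000 genes and at most 6% mitochondrial UMIs were kept, as in the study. The automatic threshold of Scrublet marked at most 1 cell per library, so the top 0.4% of scores per 1000 deposited cells were removed as doublets (305, 949, 857 and 1066 cells). Cells were clustered together with scanpy 1.11.5 and leidenalg 0.10.2 (10000 UMIs per cell, 2000 variable genes without the members and listed pathway genes, 30 components, 20 neighbours, resolution 1) and named from marker lists. At least 3 markers 2-fold above the median of the other clusters, a 10-point margin over the next class and 30 cells were needed, limits set after the data were seen. Cell names were rebuilt in this way because the authors' names were not used here, which may itself make shares differ from the study's.

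UMIs were summed per library and type, with 0.5 UMI added for ratios. CPM carry exact Poisson intervals and ratios exact binomial intervals. Cells are not replicates, so with 1 library per group no p-value is given, and a difference cannot be told apart from one between libraries. The ratio step was tested on simulated data. All 10 members are described. Of other pathway genes Nfkbia, Tnfaip3 and, per class, the 3 largest called rises and falls could be named, and for each member the 3 genes most like it among those with at least 2000 UMIs, over types and libraries with at least 100 cells. Members and lists were chosen with earlier results of these data known. Some genes, cell types and alleles are not reported here.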

Additional observations from a re-analysis of the deposited data

Results flagged for a closer look

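Members that were called higher in one cell type and lower in another under the same comparison with untreated are listed here. The difference between the types was not tested, since each group had 1 library. With the STING agonist, Birc2 had a log2 ratio of 0.63 in MHC class II macrophages and of -0.67 in neutrophils, where 21.3% of all genes were called lower. The neutrophil value moved up to -0.38 over the alternatives. With the combination, Rel had 0.70 in C1q macrophages and 0.62 in MHC class II macrophages, and -0.85 in regulatory T cells.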

How the results depend on the processing

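No paired analysis was possible because each group has 1 library, and no replicate could be left out. The counts of members called over 6 classes were small and moved with most settings. Higher with the STING agonist (0) became 1 without doublet removal, 3 with all deposited cells, 1 when thinned to 2000 UMIs per cell, 5 with median scaling, 2 with equal weight per cell, 3 with clusters at fixed weights, 1 at doubled resolution, 2 with cells named without clusters and 25 by the interval only. Lower (1) became 2 without doublet removal and with all deposited cells, 0 with median scaling, 0 with equal weight, 2 at fixed weights, 0 at doubled resolution, 3 with a minimum of 50 UMIs, 3 without a minimum, 0 at 2-fold and 7 by the interval only. With the LTbR agonist, higher (2) became 0 when thinned, at fixed weights and at 2-fold, and 26 by the interval only. Lower (0) became 1 at 50 UMIs and without a minimum, and 3 by the interval only. With the combination, higher (5) became 1 when thinned, 3 at fixed weights, 1 at 2-fold and 26 by the interval only. Lower (0) became 2 when thinned, 1 at 50 UMIs and without a minimum, and 5 by the interval only. Against the STING agonist alone, higher in the combination (5) became 0 when thinned, 2 with median scaling, 3 without immunoglobulin, mitochondrial and ribosomal genes in the total, 3 with equal weight, 2 at fixed weights, 3 without clusters, 2 at 2-fold and 16 by the interval only. Lower (0) became 2 when thinned and 11 by the interval only. Against the LTbR agonist alone, higher (0) became 1 without doublet removal, with all deposited cells, with median scaling and with equal weight, 2 at 50 UMIs and without a minimum, and 10 by the interval only. Lower (0) became 1 when thinned and 11 by the interval only. Thinning and the minimum change how many UMIs enter, and the other causes were not tested. These counts stand without the shares of all genes, which also move with the rule. In macrophages and monocytes, by the interval only, 16.1%, 22.8% and 18.0% of all genes were higher in the 3 comparisons with untreated. By the 1.5-fold rule these shares were 4.80%, 3.73% and 3.43%. The lower shares were 59.5%, 28.0% and 37.7%, against 10.1%, 2.23% and 2.72%.

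Called values that changed sign were Rel in the B class with the LTbR agonist (-0.03 at fixed weights, where only plasma clusters had enough cells), Nfkb1 in the B class of the combination against the STING agonist (-0.40 without clusters) and Traf3 there (-0.25 with equal weight). In macrophages and monocytes, Ccl22 fell to -0.28 with the STING agonist and to -0.06 with the LTbR agonist when thinned, and Ccr7 was at -0.07 with the LTbR agonist over all deposited cells. The level of Traf3 in the T class against the mean of the others was -0.02 with median scaling. Thinning left out 92.9% of neutrophils and 28.6% of macrophages and monocytes of the combination, so depth limits that library most. Traf2, with 3566 UMIs in all, and B cells, with 6 and 8 cells in the untreated and STING agonist libraries, could show only large differences.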
